A study of Mus musculus with 30 samples.

Results

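Itraconazole is an azole antifungal drug, and its effect on resting mouse macrophages was measured here by RNA sequencing. The members are 6 of the 30 libraries of the series, selected by their labels: 3 from macrophages given itraconazole and 3 from macrophages given no compound, both without lipopolysaccharide (LPS). The cells were bone marrow-derived macrophages of wild-type C57BL/6 mice, that is, macrophages grown in culture from bone marrow. Itraconazole-treated cells received the drug at 1 µM for 18 h and no stimulus, and untreated cells received neither drug nor stimulus. The labels number the mice 1, 2 and 3 in each group, so each numbered library has a partner from the same animal, and they name no vehicle for the untreated cells. Other groups used beside these had 3 libraries each. They were macrophages of the same strain given 25-hydroxycholesterol (25HC) at 5 µM or OSW-1 at 0.3 µM for the same time without LPS, and itraconazole-treated or untreated macrophages that then received LPS at 10 ng per ml. The remaining libraries, including those of Ch25h knockout macrophages, entered only the shared estimate of the spread.

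Itraconazole blocks the fungal enzyme that removes a methyl group from lanosterol, and the mammalian counterpart of that enzyme is Cyp51. In mammalian cells the drug also binds the oxysterol-binding protein OSBP, which carries cholesterol from the endoplasmic reticulum (ER) to the trans-Golgi in exchange for the lipid phosphatidylinositol 4-phosphate, and 25HC and OSW-1 bind the same protein. Cells read the cholesterol of the ER membrane through SCAP and the INSIG proteins. When cholesterol is low these let the transcription factor SREBP2 travel to the Golgi, be cut, and raise the genes of cholesterol synthesis and uptake.

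The deposited counts summed to 31932504 to 37580268 in the itraconazole libraries and to 30634780 to 38711824 in the untreated libraries. Levels below are CPM, the share of a library's counts on a common scale after normalization by TMM, which sets aside genes with extreme ratios, and each set of 3 values is in the order of mouse 1, 2 and 3. Mitochondrial transcripts took 1.747% to 1.835% of the itraconazole counts and 1.549% to 1.667% of the untreated counts. All 10 macrophage markers were tested and their summed level was 19630 to 22240 CPM with itraconazole and 18120 to 22890 CPM without. Lyz2 alone was at 14530, 13130 and 12050 CPM with itraconazole and 11310, 10470 and 13770 CPM without. Of the 10 markers 1 rose and 3 fell with itraconazole at the threshold given below. Mast cell and erythroid markers each summed to at most 0.28 CPM in any library of either group, and sums of neutrophil, dendritic, megakaryocyte, monocyte and stromal markers overlapped between the groups. Other sums were apart. T-cell markers summed to 4.9 to 7.6 CPM with itraconazole and 16.1 to 28.1 CPM in untreated cells, of which Cd4 made up nearly all, while Cd8a and Bcl11b were at 0 in all 6 libraries and Cd3d, Cd3e and Cd3g had at most 1 read in any. B-cell markers summed to 4.8 to 5.8 CPM with the drug and 8.6 to 11.3 CPM without it, nearly all of it Cd79b, with Pax5 at 0. NK-cell markers summed to 0.95 to 2.6 CPM with itraconazole and 0 to 0.31 CPM in untreated cells, mostly Klrb1c, with Ncr1, Gzma and Prf1 at 0. Endothelial markers summed to 72.8 to 100.4 CPM with itraconazole and 110.7 to 122.7 CPM untreated, mostly Vwf, with Tek and Emcn at 0. Osteoclast markers summed to 102.9 to 132.4 CPM with itraconazole and 85.4 to 102.4 CPM untreated, with Calcr at 0. Of the 6 osteoclast markers tested 3 rose and 1 fell. Dcstamp was at 14.67, 13.35 and 35.35 CPM with itraconazole and 4.584, 5.002 and 6.44 CPM untreated. Mmp9 was at 22.12, 28.55 and 31.1 CPM against 4.158, 7.295 and 11.21 CPM. The most abundant, Nfatc1, was lower, at 58.91, 56.09 and 51 CPM against 71.4, 64.61 and 73.82 CPM. The part of such cells in the results was not tested. In bulk RNA, fewer cells of a type and less RNA per cell cannot be told apart. The untreated library of mouse 3 lay farther from its group than any other of the 6, and results that rest on it are given with and without it.

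Of 13173 genes tested with edgeR's quasi-likelihood test, 1900 (14.4%) rose and 1633 (12.4%) fell with itraconazole at a Benjamini-Hochberg adjusted p under 0.05. The change was at least 2-fold in 380 of the higher genes and 356 of the lower ones. Without the untreated library of mouse 3 the counts were 1210 higher and 1033 lower. The median log2 fold change of all genes tested was 0.00, which is the background for the medians given below. Likewise the 14.4% and 12.4% are the background for the counts of list members. The lists were chosen with earlier results of these data known, so the counts describe the lists and do not test them. Itraconazole and untreated values did not overlap in 6478 of the genes tested and in 98.08% of those called. A lack of overlap therefore adds little to a call.

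The largest rises included genes of tissue-resident brain macrophages, secreted regulators and receptors. Genes named by size, here and among the falls, had to have groups apart, so a lack of overlap in them was set by the rule. Olfml3, which encodes a secreted protein used as a marker of microglia, stood at 15, 15.1 and 15.5 CPM with itraconazole, against 0.662, 0.313 and 0.372 CPM in untreated cells (log2 fold change 5.05 ± 0.54 SE, adjusted p = 3.97e-07). Cx3cr1, the fractalkine receptor, stood at 183, 164 and 135 CPM with itraconazole and 7.7, 8.23 and 11 CPM without (4.17 ± 0.51, adjusted p = 2.19e-06). Every itraconazole library exceeded every untreated library by more than 10-fold for these genes. Gpr84, a receptor for medium-chain fatty acids, had 39.9, 40.2 and 24.4 CPM with itraconazole against 2.27, 2.45 and 2.11 CPM in untreated cells (3.93 ± 0.46, adjusted p = 1.2e-06). Jag1, a ligand of Notch receptors, had 39.5, 39.2 and 40.2 CPM with the drug against 5.34, 5.58 and 3.41 CPM without it (3.04 ± 0.22, adjusted p = 1.36e-09). Both groups were tight for Jag1. Cav1, the coat protein of caveolae, was at 8.69, 8.38 and 8.17 CPM with the drug and 0.945, 1.15 and 1.05 CPM without it (3.00 ± 0.26, adjusted p = 1.63e-08). The stress-responsive kinase gene Plk3 was at 14.2, 12.6 and 15.9 CPM with itraconazole and 1.18, 1.67 and 1.73 CPM untreated (3.23 ± 0.25, adjusted p = 5.19e-09). For both genes the lowest itraconazole library was several times the highest untreated one. Trem1, a receptor that amplifies inflammatory signals, differed most among mice, with 14.1, 8.83 and 2.25 CPM under itraconazole and 0.331, 0.573 and 0.186 CPM without it (4.49 ± 0.82, adjusted p = 0.000234). Its mouse 3 value was the lowest of the itraconazole libraries and still above all untreated ones. The list of 13 microglia and CX3CR1-associated genes had 7 members higher and 2 lower, or 1 lower without itraconazole mouse 1 or 3 or untreated mouse 2. The remaining large rises, of Flrt3, Cxcl2, Slc6a9 and Ch25h, had log2 fold changes of 2.78 to 3.68.

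Among the largest falls were genes of resident-like macrophages, adhesion and clock output. Cd28, known as a costimulatory receptor of T cells, stood at 36.1, 36 and 34.3 CPM with itraconazole and at 193, 163 and 193 CPM in untreated macrophages (-2.37 ± 0.20, adjusted p = 8.9e-09). Ednrb, the endothelin B receptor, had 8.54, 9.05 and 10.7 CPM with itraconazole and 77.4, 59.5 and 77.1 CPM without it (-2.92 ± 0.34, adjusted p = 1.44e-06). Neither gene came near an overlap between the groups, although the rule already required groups apart. F13a1, the A chain of coagulation factor XIII and a marker of alternatively activated macrophages, had 4.32, 6.59 and 3.91 CPM with itraconazole against 36.9, 40.6 and 42 CPM in untreated cells (-3.01 ± 0.53, adjusted p = 0.000162). Vcam1, an adhesion molecule, had 0.570, 1.12 and 1.37 CPM with the drug against 5.29, 8.08 and 7.37 CPM without it (-2.76 ± 0.29, adjusted p = 3.97e-07). Ms4a4a, a tetraspan protein of macrophages, had 0.759, 1.34 and 1.32 CPM with itraconazole against 10.1, 10.00 and 29 CPM untreated (-3.84 ± 0.61, adjusted p = 5.63e-05). The untreated mouse 3 value of Ms4a4a was well above that of the other untreated mice, and all itraconazole values were far below the lowest of them. The clock-output factor Dbp was at 5.84, 6.65 and 9.05 CPM with itraconazole and at 43.1, 40.02 and 57.5 CPM without (-2.71 ± 0.35, adjusted p = 5.01e-06). The other genes of this group, Samd4, Trim30c, Gprc5c, Fam26f, Iigp1 and Gbp7, had log2 fold changes of -2.99 to -2.18.

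**Figure D1:**
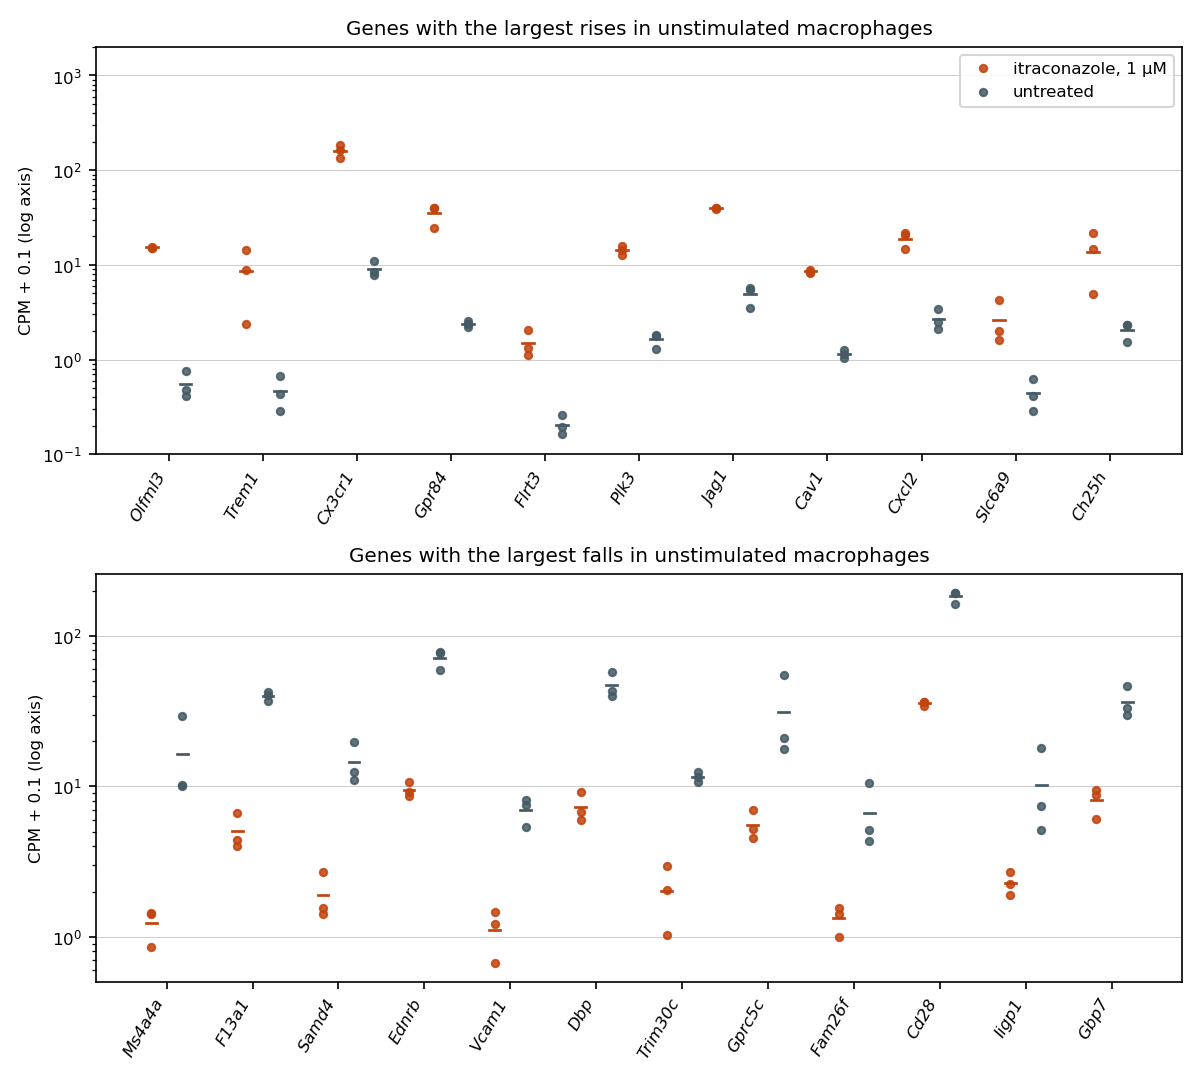
CPM plus 0.1 (log axis) of 11 of the 12 genes with the largest rise and the 12 with the largest fall by the rule for named genes, with 1 point per library, itraconazole left of untreated, and lines at the group means. In all 23 genes the 3 itraconazole points lie wholly above or wholly below the 3 untreated points, as the rule required.

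Genes of both arms of cholesterol synthesis fell. None of the 9 mevalonate-arm genes rose and 6 fell (median log2 fold change -0.69), and none of the 12 sterol-arm genes rose and 8 fell (median -0.60). The mevalonate arm summed to 302.9 to 315.3 CPM with itraconazole and 359.1 to 553.8 CPM untreated. The sterol arm summed to 564.8 to 584.0 CPM with itraconazole and 583.5 to 937.3 CPM untreated, so its sums overlapped at the edge. In the first arm Hmgcs1, which makes the precursor of mevalonate, stood at 69.1, 74.9 and 77.9 CPM with itraconazole and at 151, 168 and 106 CPM without (-0.94 ± 0.13, adjusted p = 1.29e-05). Mvd, the mevalonate diphosphate decarboxylase, stood at 24.9, 20.7 and 22.2 CPM with itraconazole and 48, 43.6 and 30.5 CPM in untreated cells (-0.85 ± 0.15, adjusted p = 0.000236), and Fdps, the farnesyl diphosphate synthase, at 35.6, 35.1 and 31.3 CPM with the drug and 76.1, 85.6 and 42.7 CPM without it (-1.004 ± 0.21, adjusted p = 0.00108). For all of these the untreated library of mouse 3 was the lowest of its group, yet no itraconazole library reached it. In the second arm Nsdhl, which acts after Cyp51, was at 23.8, 24.8 and 22 CPM with the drug and 49.6, 50.4 and 39.3 CPM without it (-0.98 ± 0.14, adjusted p = 1.94e-05). Lss, which makes lanosterol, was at 32.3, 32.3 and 29 CPM with itraconazole against 68.3, 69.1 and 39.5 CPM untreated (-0.92 ± 0.16, adjusted p = 0.000135). Cyp51, the lanosterol demethylase itself, was at 50.1, 55.3 and 60.4 CPM with itraconazole against 101, 113 and 60.9 CPM in untreated cells (-0.73 ± 0.17, adjusted p = 0.00215). Its itraconazole and untreated values almost met in mouse 3 and were about as far apart in mice 1 and 2 as those of Lss. Insig1, the ER anchor that holds SCAP back and is itself raised by SREBP2, had 96.4, 101 and 102 CPM with the drug against 195, 196 and 122 CPM without it (-0.77 ± 0.15, adjusted p = 0.000328).

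Other SREBP2-regulated genes did not pass the test. Idi1, the isopentenyl diphosphate isomerase, had 13.1, 14.9 and 11.9 CPM with itraconazole and 17.3, 20.4 and 10.2 CPM in untreated cells (-0.27 ± 0.24, adjusted p = 0.443). The groups overlapped for Idi1. Srebf2, which encodes SREBP2, was at 219, 225 and 226 CPM with the drug against 263, 288 and 219 CPM without it (-0.20 ± 0.09, adjusted p = 0.0992), but without the untreated library of mouse 3 its adjusted p was 0.019. LXR is the nuclear receptor for oxysterols, and 16 genes were tested, its own 2 genes Nr1h2 and Nr1h3 and its targets. None rose and 2 fell, namely Mertk and Cd5l. Beside 14.4% and 12.4% of all genes tested that rose and fell, the LXR list is not read as changed. Abca1 and Abcg1, the cholesterol exporters, did not pass the test (Abca1 -0.16 ± 0.21, adjusted p = 0.619, and Abcg1 -0.01 ± 0.13, adjusted p = 0.974). With the mouse as a block 5 of the 16 genes fell and 1 rose, 5 fell with only the compared groups in the fit, and 4 fell with DESeq2 or without itraconazole mouse 3. Soat2, an enzyme that esterifies cholesterol, rose to 4.51, 4.02 and 4.69 CPM with itraconazole, against 0.851, 0.938 and 0.495 CPM without (2.51 ± 0.32, adjusted p = 4.53e-06). Lipid synthesis outside the sterols was divided: the fatty acid enzymes Fasn (0.97 ± 0.24, adjusted p = 0.00463) and Acaca (0.75 ± 0.15, adjusted p = 0.000706) rose, while Acss2, which makes acetyl-CoA from acetate, fell to 6.03, 5.75 and 4.6 CPM, against 18, 17 and 11 CPM untreated (-1.49 ± 0.30, adjusted p = 0.000551).

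The promoter of Hmgcs1 is shown because it was the one promoter of the 7 mevalonate-arm genes in the table that held the sterol regulatory element searched, TCACNCCAC, on either strand. None of the 9 sterol-arm genes in the table held it in a promoter. It was in 1.24% of all 32851 promoters and, counted by gene, in 1.43% of tested genes. The promoters are those of RefSeq on GRCm38.p6, from 250 bases before to 50 after each start, and the motif is in capitals. The Hmgcs1 stretch lies at chr13:119690174-119690262 on the plus strand, wholly upstream of the start.
Hmgcs1: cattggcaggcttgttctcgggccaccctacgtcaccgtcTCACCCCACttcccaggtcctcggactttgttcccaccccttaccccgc

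**Figure D2:**
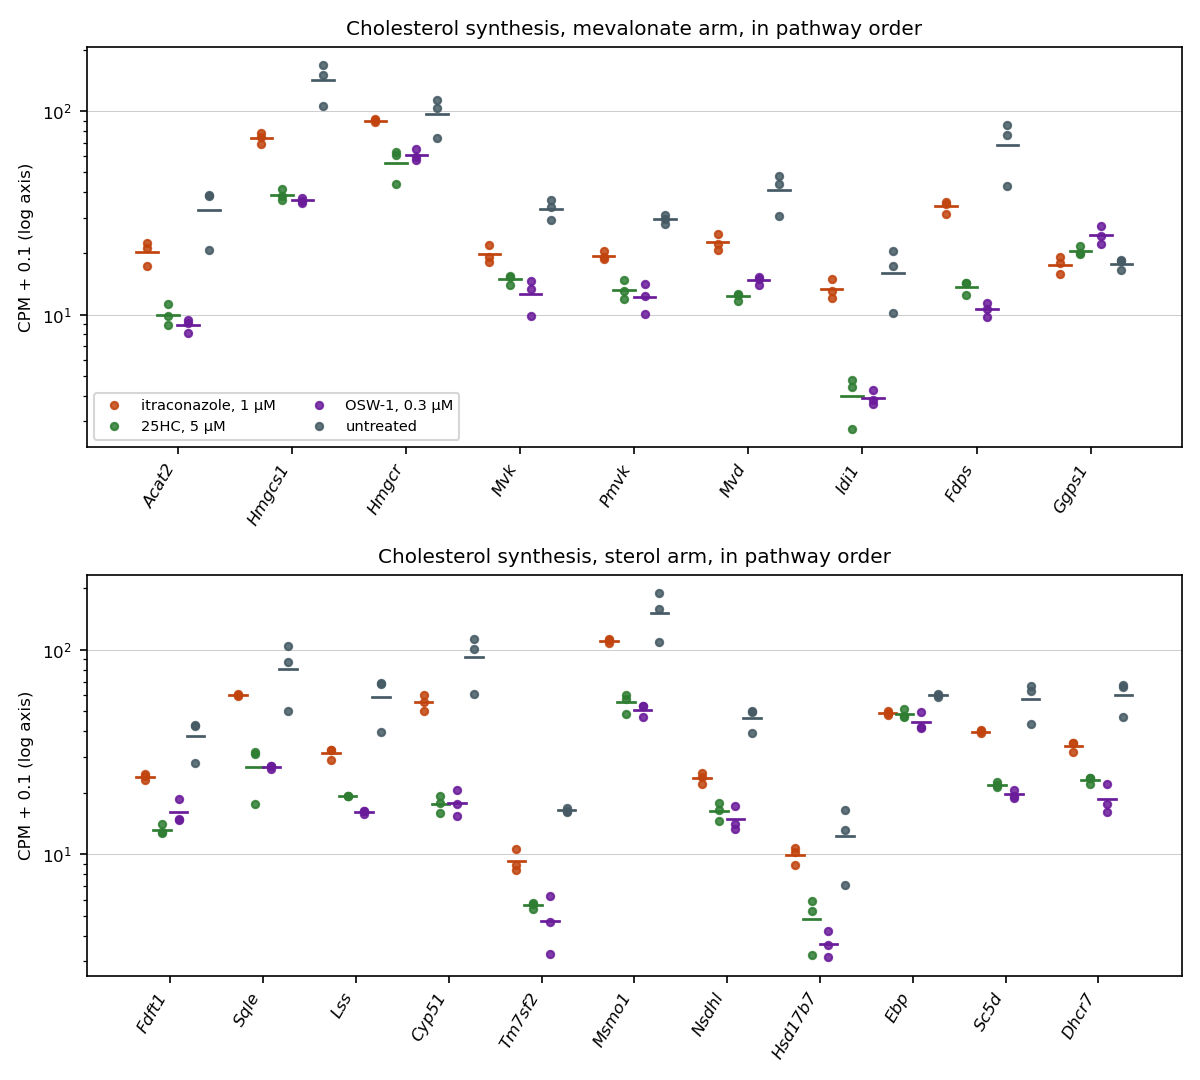
CPM plus 0.1 (log axis) by library for the 9 mevalonate-arm and 11 sterol-arm genes in unstimulated macrophages given itraconazole, 25HC, OSW-1 or no compound, with 1 point per library and lines at the group means. Hmgcs1, Fdps and Cyp51 lie lower with itraconazole than untreated and lower still with 25HC and OSW-1, while Idi1 overlaps between itraconazole and untreated.

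Genes for other proteins known to bind the drug had small differences in RNA. Osbp was at 89, 88.9 and 86.3 CPM with itraconazole and at 76.6, 71.9 and 68.9 CPM without (0.28 ± 0.09, adjusted p = 0.0166), and it lost the call without itraconazole mouse 1 (adjusted p = 0.051) or untreated mouse 3 (adjusted p = 0.081). Npc1, which exports cholesterol from lysosomes, was at 210.2, 206 and 216 CPM with itraconazole and 279, 262 and 254 CPM untreated (-0.33 ± 0.12, adjusted p = 0.0445), and the call was lost when any of the 6 libraries was left out (adjusted p 0.07 to 0.14). Vdac1, the channel of the outer mitochondrial membrane, did not pass the test (-0.03 ± 0.08, adjusted p = 0.789). Among relatives of OSBP the smallest p was that of Osbpl11, which fell to 79.3, 81.4 and 92.8 CPM, against 145, 145 and 161 CPM untreated (-0.83 ± 0.10, adjusted p = 2.38e-06).

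Genes of the early secretory pathway rose as a group by small amounts. The COPII coat forms vesicles that leave the ER, and 10 of its 16 tested genes rose and none fell (median 0.35). Sec24d, a cargo-selecting COPII subunit, stood at 104, 111 and 106 CPM with itraconazole and at 58.2, 56 and 49.6 CPM without (0.97 ± 0.09, adjusted p = 2.42e-08), and its partner Sec31a of the outer coat stood at 163, 157 and 159 CPM with itraconazole and 81.6, 81.3 and 73.7 CPM in untreated cells (1.02 ± 0.11, adjusted p = 2.81e-07). The COPI coat returns material from the Golgi, and 8 of its 12 genes rose and none fell (median 0.35), led by Copg1 at 180.4, 172 and 163 CPM with the drug against 109.9, 114 and 102 CPM without it (0.66 ± 0.08, adjusted p = 1.18e-06). Both groups were narrow and apart in each of these genes. Of the 17 KDEL receptors and p24 cargo proteins 9 rose and none fell (median 0.34). Kdelr2, a receptor that retrieves ER residents, had 108, 104 and 105 CPM with itraconazole against 51.2, 54.4 and 47.1 CPM untreated (1.05 ± 0.08, adjusted p = 1.32e-09). Its relative Kdelr3 had 37 reads over the itraconazole libraries and 3 over the untreated ones, a ratio of 11.7 with an exact 95% interval of 3.71 to 59.5 that covers counting error alone. Creb3, a Golgi-cut transcription factor of the Golgi stress response, rose to 92.3, 83.5 and 79.9 CPM with the drug, against 55.6, 53.9 and 49.1 CPM untreated (0.69 ± 0.10, adjusted p = 3.06e-05).

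Genes of the contact between ER and Golgi went in both directions, while genes of the ER folding machinery rose. Of 15 contact and phosphatidylinositol 4-phosphate genes 5 rose and 2 fell (median 0.12), the falls numbered 1 when any 1 of the 6 libraries was left out, and 2 rose without mouse 3 in both groups. Acbd3, which brings the PI4-kinase to the Golgi, was at 90.2, 89.7 and 93.8 CPM with itraconazole and 56.2, 57.8 and 57.7 CPM without (0.67 ± 0.11, adjusted p = 7.63e-05), whereas Vapb, one of the ER proteins to which OSBP docks, fell to 119.5, 126 and 120.2 CPM, against 160.3, 163 and 145 CPM untreated (-0.36 ± 0.06, adjusted p = 0.00021). Of 20 sphingolipid enzymes and carriers 6 rose and 5 fell (median 0.19), and the falls numbered 2 without itraconazole mouse 1 and 1 without itraconazole mouse 2 or untreated mouse 3. Col4a3bp, which encodes the ceramide carrier CERT, rose to 132, 130.4 and 126 CPM, against 87.4, 85.9 and 83.6 CPM untreated (0.59 ± 0.11, adjusted p = 0.000438). Of 20 ER chaperones 10 rose and none fell (median 0.36), among them Hyou1 at 189.9, 195 and 191 CPM with itraconazole against 108, 117 and 70.7 CPM in untreated cells (0.96 ± 0.15, adjusted p = 4.3e-05). Its untreated mouse 3 value was the lowest of the 6. Of 17 ER stress sensors and degradation factors 7 rose and none fell (median 0.23), but 4 rose without itraconazole mouse 1 and 3 without untreated mouse 3. Xbp1, the transcription factor of the unfolded protein response, was at 226, 214 and 210.1 CPM with the drug against 182, 167 and 143 CPM without it (0.40 ± 0.07, adjusted p = 0.000224).

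**Figure D3:**
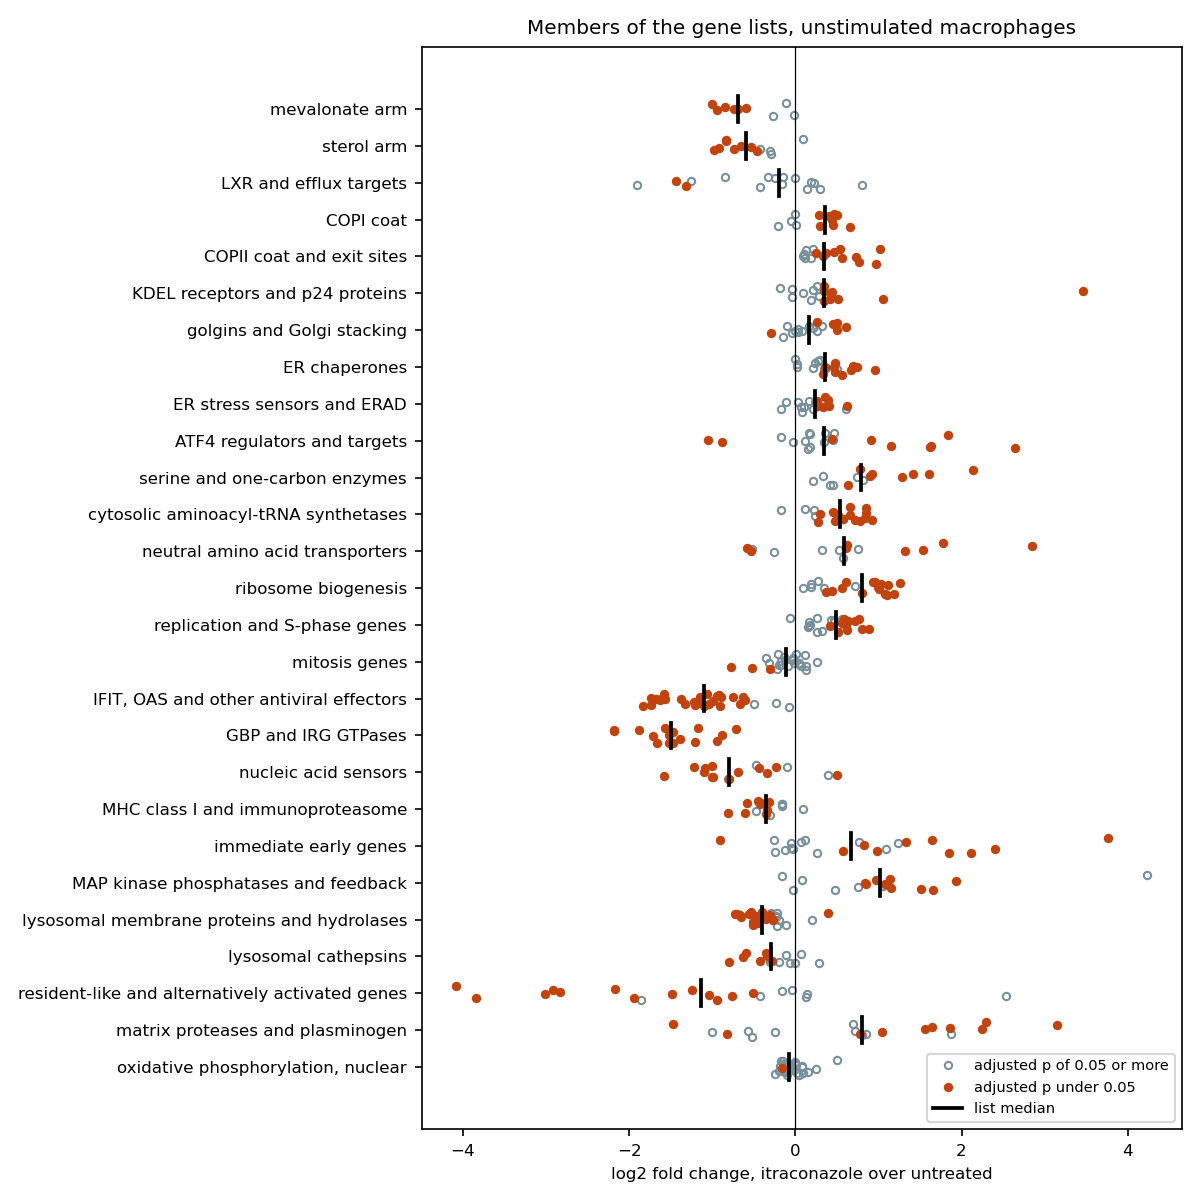
Log2 fold change, itraconazole over untreated, of the tested members of 27 gene lists, with 1 point per gene, filled where the adjusted p was under 0.05, and a bar at each list's median. The fitted values of Kdelr3 and Timd4, with 3 or fewer reads in a group, depend on the prior count. Lists of amino acid, tRNA synthetase and ribosome genes sit right of 0, and lists of cholesterol synthesis, interferon-stimulated and resident-like genes sit left of it.

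Amino acid supply genes rose. ATF4, a transcription factor whose translation increases under amino acid or ER stress, was itself higher in RNA, with 303, 271 and 273 CPM for Atf4 under itraconazole and 168, 161 and 121 CPM without (0.91 ± 0.18, adjusted p = 0.000432). Of 20 ATF4 regulators and targets 7 rose and 2 fell (median 0.35). Chac1, which degrades glutathione, was at 9.26, 5.2 and 5.62 CPM with itraconazole and 1.04, 1.56 and 0.557 CPM untreated (2.65 ± 0.47, adjusted p = 0.000201), and Trib3, a feedback inhibitor of ATF4, at 28.1, 20.7 and 20.4 CPM with itraconazole and 10.6, 7.82 and 3.96 CPM in untreated cells (1.62 ± 0.38, adjusted p = 0.00267). The groups did not overlap for any of these. In contrast Ddit4, an inhibitor of mTORC1 signalling, fell to 3.42, 3.3 and 4.01 CPM, against 7.84, 7.3 and 7.06 CPM untreated (-1.05 ± 0.17, adjusted p = 6.8e-05). Serine and one-carbon enzymes had 8 of 14 members higher and none lower (median 0.79). Pycr1, a proline-making enzyme, stood at 4.13, 3.41 and 3.42 CPM with itraconazole and 1.13, 0.938 and 0.372 CPM without (2.14 ± 0.33, adjusted p = 3.53e-05), and Mthfd2, the mitochondrial folate enzyme, at 122, 97 and 86.8 CPM with the drug and 38.4, 41.2 and 20.4 CPM without it (1.61 ± 0.26, adjusted p = 5.72e-05). Of 20 cytosolic aminoacyl-tRNA synthetases 16 rose and none fell (median 0.54), for example Mars at 107, 89.4 and 76.3 CPM with itraconazole against 54.8, 56.2 and 40.1 CPM untreated (0.85 ± 0.16, adjusted p = 0.000296). The arginine and lysine carrier Slc7a1 was at 86.1, 87.8 and 68.9 CPM with itraconazole and 27, 31.5 and 12.3 CPM in untreated cells (1.77 ± 0.30, adjusted p = 0.000127), and 6 of 14 amino acid transporters rose and 2 fell, or 1 without untreated mouse 3.

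Promoters of Chac1 and Pycr1 are shown because both genes were among the clearest rises of this group and both held the amino acid response element searched, TGATGNAA, on either strand. Counted by gene, with any of its promoters, it was found for 7 of 18 ATF4 regulators and targets and 5 of 13 tRNA synthetases. It was found for 2 of 9 transporters and 1 of 11 serine and one-carbon enzymes. Across all promoters the share was 3.97%. By gene it was 2.81% of tested genes, 3.47% of genes that rose and 3.1% of genes that fell. The Chac1 stretch is at chr2:119351009-119351096 on the plus strand and the Pycr1 stretch at chr11:120643804-120643891 on the minus strand, both upstream of the start, with the motif in capitals.
Chac1: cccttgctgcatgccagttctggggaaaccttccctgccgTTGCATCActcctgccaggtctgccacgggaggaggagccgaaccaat
Pycr1: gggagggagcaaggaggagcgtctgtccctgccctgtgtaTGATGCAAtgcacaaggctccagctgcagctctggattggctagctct

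Ribosome production and DNA replication genes were higher as well. Of 21 ribosome biogenesis factors 15 rose and none fell (median 0.80), among them Nop56, part of the box C/D particle that modifies ribosomal RNA, at 61.5, 60.3 and 49.9 CPM with itraconazole and 27.2, 31.4 and 20.7 CPM without (1.11 ± 0.15, adjusted p = 1.15e-05). Myc, the transcription factor that drives many of these genes, was at 33.9, 37.6 and 33.3 CPM with the drug against 5.2, 9.9 and 4.64 CPM without it (2.40 ± 0.26, adjusted p = 4.31e-07). Its lowest itraconazole value was over 3 times its highest untreated value. Of 24 replication and S-phase genes 11 rose and none fell (median 0.49), for example Mcm6, a subunit of the replicative helicase, at 283, 264 and 239 CPM with itraconazole and 172, 212 and 127 CPM untreated (0.62 ± 0.15, adjusted p = 0.00329). The S-phase count was 6 without itraconazole mouse 1, 7 without itraconazole mouse 2 and 4 without untreated mouse 3. Of 24 mitosis genes none rose and 3 fell, beside 14.4% and 12.4% of all genes tested, so that list is not read as changed. The falls numbered 0 or 1 when any library but untreated mouse 2 was left out and 8 with only the compared groups in the fit.

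Interferon-stimulated genes fell. Type I interferons act through JAK kinases and STAT factors, which with IRF9 bind interferon-stimulated response elements and raise antiviral effectors. Of 29 IFIT, OAS and other antiviral effectors none rose and 26 fell (median -1.10), of 16 GBP and IRG GTPases all 16 fell (median -1.50), and of 17 nucleic acid sensors 1 rose and 12 fell (median -0.80; 2 rose with the mouse as a block). Oas2, which activates RNase L in response to double-stranded RNA, stood at 73.1, 59.6 and 46.4 CPM with itraconazole and at 129, 151 and 137 CPM without (-1.22 ± 0.17, adjusted p = 1.11e-05). Rtp4, an inhibitor of viral replication, had 74.4, 53.4 and 38.8 CPM with itraconazole against 138, 168 and 127 CPM in untreated cells (-1.37 ± 0.19, adjusted p = 8.76e-06). Ifit3, of the family that binds foreign RNA, had 41.1, 27.5 and 21.9 CPM with the drug against 75.8, 104 and 122 CPM without it (-1.74 ± 0.32, adjusted p = 0.00023). Within the itraconazole group mouse 1 was highest and mouse 3 lowest for each of these genes, and no library crossed into the range of the other group. Gbp7, a guanylate-binding protein, was at 9.4, 8.71 and 5.97 CPM with itraconazole and 29.9, 33.2 and 46.1 CPM without (-2.18 ± 0.27, adjusted p = 2.3e-06). Irgm1, an immunity-related GTPase of phagosomes, was at 97.1, 78.1 and 64.1 CPM with itraconazole and 141, 168 and 149 CPM untreated (-0.94 ± 0.15, adjusted p = 6.8e-05), and Zbp1, a sensor of Z-form nucleic acids, at 19.7, 13.9 and 12.6 CPM with itraconazole and 37.9, 56.5 and 43.6 CPM in untreated cells (-1.58 ± 0.23, adjusted p = 2.41e-05). The 3 mice agreed in direction at each of them. Without mouse 3 in both groups 10 of the GBP and IRG genes fell.

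Components of the signalling chain went in both directions. Stat2 was at 101, 79.3 and 71.6 CPM with itraconazole and 168, 189 and 165 CPM without (-1.05 ± 0.19, adjusted p = 0.000215), and Irf7, which amplifies interferon production, at 111, 82.7 and 62.2 CPM with itraconazole and 160.2, 223 and 161 CPM untreated (-1.09 ± 0.24, adjusted p = 0.00178). Of 15 interferon receptor and JAK-STAT genes 3 rose and 5 fell. The rises numbered 1 without itraconazole mouse 2 or 3 or untreated mouse 1, and the falls 3 without itraconazole mouse 2 or untreated mouse 3. Of 9 interferon regulatory factors 4 fell and 1 rose, namely Irf5 (0.44 ± 0.13, adjusted p = 0.0111), which lost the call without untreated mouse 1 (adjusted p = 0.053). Tlr7, the endosomal sensor of single-stranded RNA, fell to 173, 153 and 154 CPM, against 329, 309 and 324 CPM untreated (-1.003 ± 0.13, adjusted p = 5.65e-06), while Tlr13, the mouse sensor of bacterial ribosomal RNA, rose to 457, 471 and 465 CPM, against 322, 377 and 287 CPM untreated (0.50 ± 0.08, adjusted p = 0.000107). The endosomal receptors included a gene in each direction, with no overlap of the groups in either. Of 15 genes of MHC class I loading and the immunoproteasome none rose and 9 fell (median -0.35), and 4 fell without itraconazole mouse 2. For example H2-T23, a non-classical class I molecule, stood at 176, 159.7 and 171 CPM with itraconazole against 281, 294 and 316 CPM in untreated cells (-0.82 ± 0.14, adjusted p = 0.000132). Ciita, the master regulator of MHC class II, was at 0.522, 0.559 and 0.538 CPM with itraconazole and 2.46, 2.03 and 5.82 CPM without (-2.66 ± 0.53, adjusted p = 0.000591). The class II list had 3 of 10 members lower, 1 when itraconazole mouse 1, itraconazole mouse 3 or untreated mouse 3 was left out, and 5 with the mouse as a block.

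Promoters of Ifit3 and Gbp7 are shown as examples of the response element searched, GAAANNGAAA, on either strand. Counted by gene, with any of its promoters, it was found for 13 of 22 antiviral effectors and 9 of 10 GBP and IRG GTPases. It was in 3.44% of all promoters. By gene it was found for 3.97% of tested genes, 8.01% of genes that fell and 2.75% of genes that rose. The Ifit3 stretch is at chr19:34583333-34583422 and the Gbp7 stretch at chr3:142530243-142530332, both on the plus strand and upstream of the start, with the motif, here in its reverse orientation, in capitals. The Ifit3 stretch holds 2 matches and the Gbp7 stretch 1.
Ifit3: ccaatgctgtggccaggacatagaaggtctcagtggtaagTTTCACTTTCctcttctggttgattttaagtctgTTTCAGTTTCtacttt
Gbp7: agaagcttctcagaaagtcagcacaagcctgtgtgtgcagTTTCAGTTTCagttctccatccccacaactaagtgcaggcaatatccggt

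**Figure D4:**
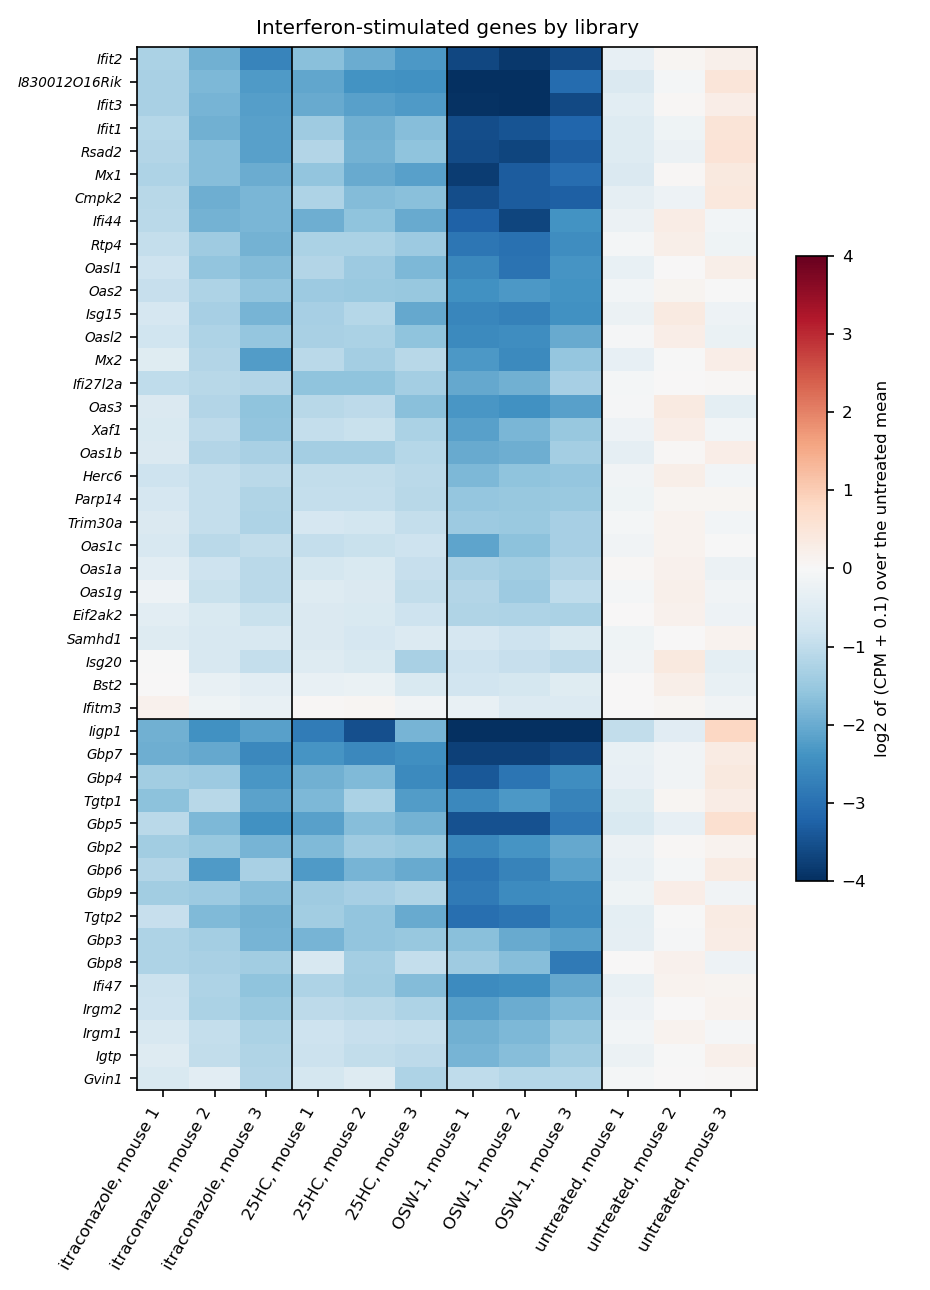
Heat map of the 29 antiviral effectors (above the line) and 16 GBP and IRG GTPases (below it) in the libraries of unstimulated macrophages given itraconazole, 25HC, OSW-1 or no compound, coloured by log2 of CPM plus 0.1 over the untreated mean, with colours clipped at 4 in each direction. Nearly all itraconazole cells are on the lower side of the untreated mean, and the OSW-1 cells are darker for most genes.

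Growth-factor and stress-signalling genes rose, and inflammatory mediators were mixed. Of 22 immediate early genes 9 rose and 1 fell (median 0.67; none fell without itraconazole mouse 2 or untreated mouse 3), and of 16 MAP kinase phosphatases and feedback genes 9 rose and none fell (median 1.01). Fos, part of the AP-1 transcription factor, stood at 106, 124 and 146 CPM with itraconazole and 21.4, 29.6 and 35.9 CPM without (2.11 ± 0.27, adjusted p = 3.61e-06), and Dusp1, which inactivates MAP kinases, at 81.6, 75.6 and 78.6 CPM with the drug and 35.1, 36.2 and 35 CPM without it (1.15 ± 0.18, adjusted p = 6.06e-05). Spred2, an inhibitor of the Ras-MAP kinase route, stood at 38.6, 45.6 and 36.1 CPM with itraconazole against 12.2, 19.3 and 6.5 CPM untreated (1.66 ± 0.25, adjusted p = 3.14e-05). The groups were apart in all of these. Tnf, the cytokine TNF, rose to 56.8, 60.1 and 45.5 CPM, against 10.9, 14.3 and 10.6 CPM untreated (2.18 ± 0.45, adjusted p = 0.000775), and Il10, an anti-inflammatory cytokine, fell to 1.28, 1.96 and 1.81 CPM, against 3.21, 3.6 and 4.95 CPM untreated (-1.22 ± 0.31, adjusted p = 0.00479). The call of Il10 was lost without mouse 3 in both groups (-1.08, adjusted p = 0.064). Pdgfb, a growth factor for mesenchymal cells, was at 135, 143 and 199.8 CPM with itraconazole and 32.6, 35.6 and 46.1 CPM in untreated cells (2.07 ± 0.23, adjusted p = 6.97e-07). Of 22 cytokines in all 4 rose, 3 fell and 15 did not pass the test. Beside 14.4% and 12.4% of all genes tested that rose and fell, the cytokine list is not read as changed.

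Chemokines are not read as changed as a list, beside 14.4% of all genes tested that rose and 12.4% that fell. Of 21 chemokines 4 rose (7 with DESeq2) and 1 fell (none without itraconazole mouse 1, and 2 with only the compared groups in the fit), with Cxcl14 at 14.4, 17.6 and 34.7 CPM with itraconazole and 3.02, 4.17 and 3.59 CPM without (2.63 ± 0.33, adjusted p = 3.83e-06) and Cxcl2, a chemokine for neutrophils, at 21.4, 20.4 and 14.5 CPM with the drug and 2.41, 1.98 and 3.28 CPM without it (2.88 ± 0.46, adjusted p = 6.04e-05). Ccl2, which attracts monocytes, had a log2 fold change of 1.65 ± 0.60 (adjusted p = 0.0416) and lost the call without itraconazole mouse 1 (adjusted p = 0.094), itraconazole mouse 2 (0.11), untreated mouse 1 (0.10) or untreated mouse 3 (0.18). NF-kB inhibitors and the LPS co-receptor were higher. Nfkbie, an IkB protein, was at 37, 38.6 and 42.2 CPM with itraconazole against 12.9, 15 and 17.1 CPM untreated (1.39 ± 0.15, adjusted p = 6.97e-07), Tnfaip3, the ubiquitin editor A20, at 32.1, 39.3 and 54.5 CPM with itraconazole and 14.2, 16.1 and 18.7 CPM in untreated cells (1.36 ± 0.26, adjusted p = 0.000333), and Cd14 at 1294, 1087 and 952 CPM with the drug and 612, 528 and 563 CPM without it (0.97 ± 0.15, adjusted p = 5.45e-05). Of 27 NF-kB and TLR signalling genes 7 rose and 5 fell, and the falls numbered 3 without any 1 of the itraconazole libraries and 2 without untreated mouse 3. Ch25h, the enzyme that makes 25HC, was at 21.4, 14.6 and 4.84 CPM with itraconazole and 2.22, 2.24 and 1.42 CPM without (2.78 ± 0.55, adjusted p = 0.000547), and its itraconazole values spread more than 4-fold among the mice.

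Genes of resident-like and alternatively activated macrophages fell, with none of 20 higher and 13 lower (median -1.14). That list, like the others, was chosen with earlier results of these data known. Sepp1, the selenium carrier selenoprotein P, stood at 693, 843 and 1005 CPM with itraconazole and 3189, 2821 and 5385 CPM without (-2.17 ± 0.35, adjusted p = 7.64e-05), and Cbr2, a carbonyl reductase of resident macrophages, at 16.4, 21.8 and 17.9 CPM with itraconazole and 71.2, 76.4 and 68.6 CPM untreated (-1.95 ± 0.24, adjusted p = 2.07e-06). Timd4, a phosphatidylserine receptor of resident macrophages, had 1 read with itraconazole and 19 without, which puts untreated cells 3.18 to 830 times higher by the exact 95% interval of the ratio. Sepp1 and Cbr2 did not overlap between the groups. Clearance of dead cells involves Mertk and its ligand Gas6. Gas6 was at 466, 525 and 524 CPM with itraconazole against 1557, 1426 and 1341 CPM in untreated cells (-1.51 ± 0.13, adjusted p = 8.9e-09) and Mertk at 37.2, 39.8 and 43.3 CPM with the drug against 90.7, 86.4 and 122 CPM without it (-1.31 ± 0.21, adjusted p = 7.2e-05). Both ligand and receptor were lower in every itraconazole library. Maf, a transcription factor of resident macrophages, fell to 298, 338 and 293 CPM, against 599, 650.4 and 638 CPM untreated (-1.02 ± 0.24, adjusted p = 0.00239). Emr1, which encodes the F4/80 antigen, was at 1340.1, 1460.0 and 1493 CPM with itraconazole and 1786, 1840.3 and 2253 CPM untreated (-0.45 ± 0.12, adjusted p = 0.00813), and its call was lost without untreated mouse 3 (-0.34, adjusted p = 0.081).

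Scavenger receptors went both ways, with 5 of 24 higher and 10 lower. The rises numbered 3 without itraconazole mouse 1 or 3 and 2 without itraconazole mouse 2, untreated mouse 1 or untreated mouse 3. Olr1, the receptor for oxidized LDL, had 65 reads over the itraconazole libraries and none over the untreated ones, at least 20.6-fold higher on a floor of 3 reads over the group. Fcgr4, an activating receptor for antibodies, fell to 19.5, 20.4 and 15.9 CPM with itraconazole, against 53.1, 57.6 and 60.1 CPM untreated (-1.62 ± 0.22, adjusted p = 8.01e-06).

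Lysosomal genes were modestly lower. Of 30 lysosomal membrane proteins and hydrolases 1 rose and 20 fell (median -0.40). The rise was lost without itraconazole mouse 3 or any 1 untreated library, and 12 fell without itraconazole mouse 2. Of 14 cathepsins and related proteases 7 fell and none rose (median -0.30), and 4 fell without itraconazole mouse 2 or untreated mouse 3. Ctsb, the most abundant gene of the list named here, was at 13109, 13452 and 13959.6 CPM with itraconazole and 19949, 19329 and 21868 CPM without (-0.59 ± 0.12, adjusted p = 0.00086), and Grn, the progranulin gene, at 2665, 2783 and 2745 CPM with itraconazole and 3833, 3818 and 3899.6 CPM in untreated cells (-0.50 ± 0.09, adjusted p = 0.000186). Both differed by less than 2-fold with no overlap. The folliculin gene Flcn, a regulator of mTORC1 at the lysosome, fell to 85.1, 80.9 and 85.7 CPM, against 156, 137 and 156 CPM untreated (-0.83 ± 0.12, adjusted p = 2.28e-05), and its partner in that signal Rragc to 239.9, 223 and 213 CPM, against 365, 329.9 and 312 CPM untreated (-0.58 ± 0.11, adjusted p = 0.000473). The autophagy genes Ulk1 (-0.82 ± 0.13, adjusted p = 7.14e-05) and Map1lc3b (-0.63 ± 0.11, adjusted p = 0.000135) also fell. Of 20 autophagy genes 1 rose and 6 fell. None rose without mouse 1 or mouse 2 of either group, and 3 fell without untreated mouse 3.

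Proteases of the cell surface and matrix rose, with 8 of 19 higher and 2 lower (median 0.80). The falls numbered 1 without itraconazole mouse 1 or 2 and none without untreated mouse 3. Plau, the urokinase that activates plasminogen, was at 461, 699 and 1114 CPM with itraconazole and 145, 222 and 95.2 CPM without (2.30 ± 0.38, adjusted p = 7.76e-05), its receptor Plaur at 73.8, 80.2 and 93.5 CPM with the drug and 25.9, 27.3 and 25.8 CPM without it (1.65 ± 0.24, adjusted p = 1.67e-05), and the elastase Mmp12 at 847, 908 and 1294 CPM with itraconazole and 312, 353 and 368 CPM untreated (1.56 ± 0.24, adjusted p = 3.06e-05). Enzyme and receptor were both higher with itraconazole, without overlap. Of the enzymes that handle extracellular nucleotides, Nt5e, which makes adenosine, had 143 reads with itraconazole and none without, at least 45.3-fold higher on the same floor of 3 reads, whereas Entpd1, which acts before it on ATP and ADP, fell to 53.7, 68.2 and 75.5 CPM, against 154, 164 and 209.7 CPM untreated (-1.42 ± 0.26, adjusted p = 0.000263).

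Against 25HC, itraconazole differed at few genes. Of the 13173 genes 20 (0.152%) were higher with itraconazole and 11 (0.0835%) lower, and with the mouse as a block 67 differed in all. The doses differ, at 1 µM itraconazole and 5 µM 25HC, so these are values side by side and not a comparison of potency. Genes of cholesterol synthesis were 11 of the 20 higher ones, with 5 of 9 mevalonate-arm genes higher (median 0.89) and 6 of 12 sterol-arm genes higher (median 0.87), and none lower in either. Cyp51 was at 50.1, 55.3 and 60.4 CPM with itraconazole, 17.7, 19.2 and 15.9 CPM with 25HC and 101, 113 and 60.9 CPM untreated (itraconazole over 25HC 1.65 ± 0.18, adjusted p = 5.41e-06). For Cyp51 no itraconazole library overlapped the 25HC libraries. Exporters of cholesterol differed the other way: Abcg1 had 314, 265 and 339 CPM with itraconazole and 636, 619 and 773 CPM with 25HC (-1.14 ± 0.13, adjusted p = 2.83e-05). Abca1 had 272, 309 and 336 CPM with itraconazole and 616, 606 and 732 CPM with 25HC (-1.09 ± 0.21, adjusted p = 0.0154), a call lost without itraconazole mouse 1 (adjusted p = 0.11), mouse 2 (0.099) or mouse 3 (0.051) or 25HC mouse 3 (0.092). Cd28 was lower with itraconazole, at 36.1, 36 and 34.3 CPM against 72, 62.9 and 103 CPM with 25HC (-1.16 ± 0.19, adjusted p = 0.0024). Cd24a, a surface glycoprotein, was higher, at 13, 16.3 and 31.4 CPM with itraconazole and 7.95, 6.41 and 7.83 CPM with 25HC (1.45 ± 0.28, adjusted p = 0.0137), but its call was lost without any one of itraconazole mouse 3 (0.98, adjusted p = 0.27), 25HC mouse 1 (adjusted p = 0.063), mouse 2 (0.14) or mouse 3 (0.055). None of the 29 antiviral effectors passed the test against 25HC. Oas2, for example, was at 73.1, 59.6 and 46.4 CPM with itraconazole and 51.1, 49.4 and 48.7 CPM with 25HC (0.26 ± 0.17, adjusted p = 0.805), and a p that misses the threshold does not show that the compounds act alike.

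Against OSW-1, given at 0.3 µM, 362 genes (2.75%) were higher with itraconazole and 472 (3.58%) lower. The 834 calls together became 176 without OSW-1 mouse 1, 489 without OSW-1 mouse 2, 383 without itraconazole mouse 1 and 295 without itraconazole mouse 2. Cholesterol synthesis was again higher with itraconazole, in 8 of 9 mevalonate-arm genes (median 0.69; Ggps1 was lower) and 11 of 12 sterol-arm genes with none lower (median 1.01). Interferon-stimulated genes were also higher with itraconazole: 21 of 29 antiviral effectors (median 0.98) and 8 of 16 GBP and IRG GTPases (median 1.09) were higher and none was lower. Ifit3 was at 41.1, 27.5 and 21.9 CPM with itraconazole, 6.49, 6.3 and 8.18 CPM with OSW-1 and 75.8, 104 and 122 CPM untreated (2.11 ± 0.33, adjusted p = 0.000681), so itraconazole stood between the others without overlap. ATF4 targets were lower with itraconazole than with OSW-1 in 13 of 20 genes, with none higher (median -0.81). Nupr1, a stress-induced chromatin protein, was at 27.9, 25.1 and 19.5 CPM with itraconazole, 62.2, 48.7 and 41.5 CPM with OSW-1 and 11.7, 9.64 and 11.2 CPM untreated (-1.07 ± 0.23, adjusted p = 0.00575). Trib3 was at 28.1, 20.7 and 20.4 CPM with itraconazole, 103, 68.2 and 57.1 CPM with OSW-1 and 10.6, 7.82 and 3.96 CPM untreated (-1.72 ± 0.37, adjusted p = 0.00617), and lost the call without OSW-1 mouse 1 (-1.44, adjusted p = 0.062). Ptger2, a prostaglandin E2 receptor, was at 11, 8.71 and 8.56 CPM with itraconazole and 33.9, 21.8 and 18.8 CPM with OSW-1 (-1.40 ± 0.20, adjusted p = 0.000331).

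The itraconazole difference was set against that in LPS-stimulated cells by an interaction test, in which a positive value means a higher itraconazole-over-untreated ratio with LPS than without. It was positive in 1601 genes (12.2%) and negative in 1866 (14.2%). The libraries with and without LPS are separate, and the same 3 mice gave both. The labels give libraries without LPS a stimulation time of 0 and those with LPS a longer one, so time since the drug may differ too. Effects of LPS and of such time cannot be told apart in this test. Of the 3533 genes called without LPS, 1147 had a called interaction, and 2283 (64.6%) were called in the same direction with LPS, where they made up 31.9% of 7164 calls. Another 194 were called in the opposite direction and 1056 were not called with LPS. The interaction subtracts the difference at rest. Genes called or named for that difference therefore lean by choice towards an interaction of opposite sign, and its size in them is not read further. All 12 sterol-arm genes had a negative interaction (median -1.20). Cyp51 was at 13.7, 14.6 and 16.3 CPM with itraconazole and LPS and 82.2, 83.4 and 57.5 CPM with LPS alone (-2.32 ± 0.18, interaction -1.59 ± 0.24, adjusted p = 5.86e-05). Jag1, Cav1, Dbp and F13a1 kept a difference in the same direction, and the interaction did not pass the test for them. Jag1, for example, was at 190.3, 225 and 217 CPM with itraconazole and LPS and 34.8, 38.7 and 29 CPM with LPS alone (2.62 ± 0.21, interaction -0.42 ± 0.29, adjusted p = 0.299). The falls of Ms4a4a, Vcam1, Trim30c and Gbp7 were smaller with LPS. Gbp7 was at 156, 138 and 62.6 CPM with itraconazole and LPS and 161, 189.6 and 129 CPM with LPS alone (-0.43 ± 0.24, interaction 1.75 ± 0.36, adjusted p = 0.000944), so that the groups overlapped there and not at rest. Of the 13 microglia-associated genes 9 had a negative interaction and none a positive one (median -1.42), and the 9 included 6 of the 7 that were higher at rest, among them Olfml3, Cx3cr1 and Gpr84. Olfml3 was at 0.497, 0.918 and 3.49 CPM with itraconazole and LPS and 0.983, 1.44 and 2.8 CPM with LPS alone (-0.08 ± 0.49, interaction -5.12 ± 0.73, adjusted p = 2.88e-05). Mitosis genes had 14 negative and 1 positive interactions of 24, and S-phase genes 15 negative and none positive of 24.

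**Figure D5:**
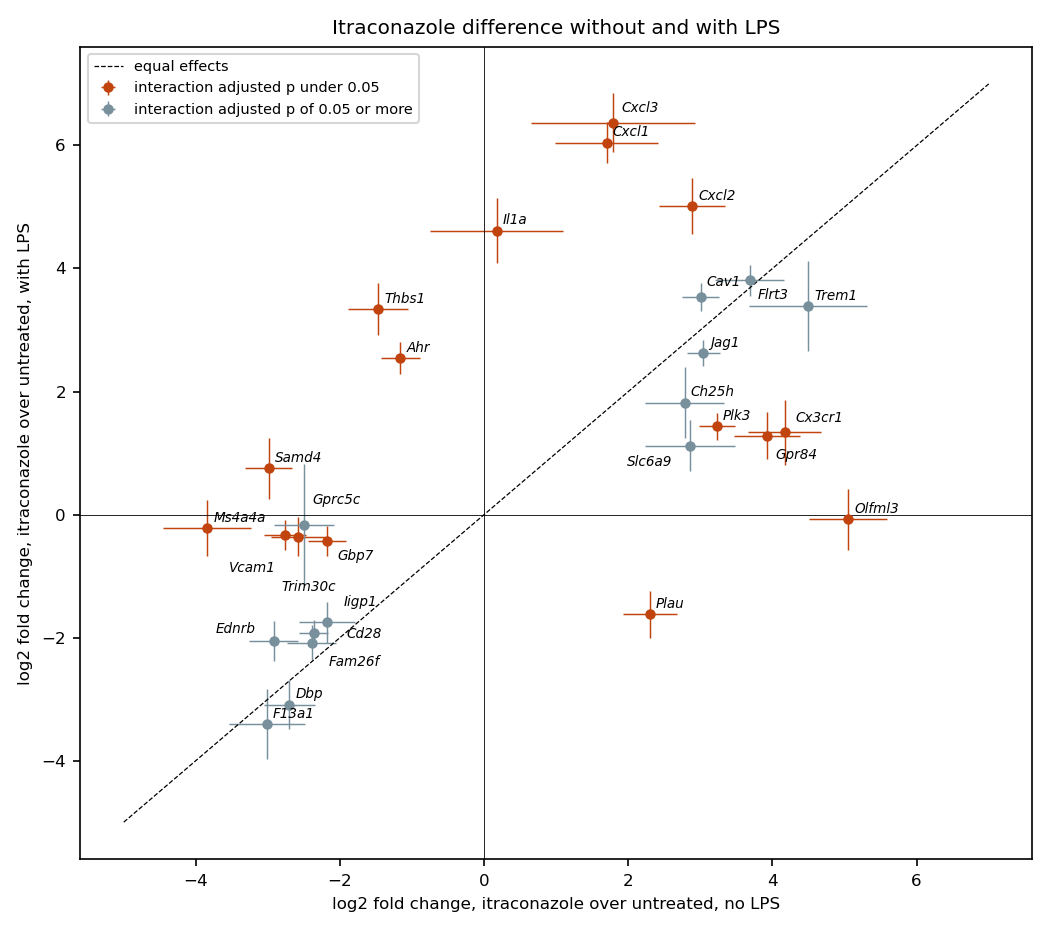
Log2 fold change of itraconazole over untreated with LPS (vertical) against that without LPS (horizontal) for 29 named genes, with bars of 1 SE and a line of equal effects, leaving out genes under 0.2 CPM in both LPS groups. Points with a called interaction (orange) lie off the line, such as Olfml3 near 0 with LPS and Cxcl1 and Il1a high with LPS, while Jag1, Cav1, Dbp and F13a1 lie near it.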

How the data were processed

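The deposited table holds raw counts per gene, which the submitters' processing notes trace to reads aligned with GSNAP to GRCm38 and counted with featureCounts of Subread 1.5.2. Per the labels' protocols, polyA libraries were prepared with a stranded kit. In all 6 libraries of this comparison every deposited count was even, so a read may stand for 2 counts, and halving them was an alternative. Not every library of the fit was so. Odd counts were 46.13% of the nonzero counts of 25HC mouse 3 without LPS. They were 49.66% to 51.38% in the knockout libraries and in those with OSW-1 and LPS. Where numbers of reads are given, the counts were halved. Genes passing filterByExpr at a minimum count of 10 (13173 of 30538) were tested with edgeR 4.0.16 in R 4.3.3, by TMM scaling and the quasi-likelihood test over all 30 libraries as 10 group means, with Benjamini-Hochberg adjustment over all genes tested and a threshold of 0.05. Values after ± are standard errors of the log2 fold change, itraconazole over the group named after it. Intervals and floors cover counting error only. The replicates are mice by label, and the numbers pair them. Deviations of same-numbered itraconazole and untreated libraries correlated at 0.174, 0.114 and 0.172, so a fit with the mouse as a block was an alternative. Other alternatives were DESeq2 1.42.0, its size factors, no count filter, only the compared groups, and leaving out each library or mouse 3. Genes were named by size (12 each way, groups apart and log2 CPM averaging 2 or more), by rank of p within a list (at most 5 each), as 1 of 10 fixed genes, or as the 6 largest each way in another contrast. The printed promoters were chosen among named genes for a motif wholly upstream of the start. Members, lists and rule were chosen with earlier results of these data known. Gene symbols are those of the deposited table. The procedure was tested on simulated data. A few genes tested are counted in the totals and not reported here.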

Additional observations from a re-analysis of the deposited data

Results flagged for a closer look

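The effect of itraconazole differed between libraries with and without LPS at 3467 genes, by the interaction in edgeR's quasi-likelihood test. LPS and time since the drug cannot be told apart in it. The largest differences of named genes are given here. Positive interaction values, in which the log2 fold change of itraconazole over untreated was higher with LPS, were found for Thbs1, an adhesive matrix protein (4.81 ± 0.59 SE, adjusted p = 5.52e-06), Cxcl3 (4.58), Il1a (4.44), Cxcl1 (4.34), Samd4 (3.74) and Ahr, the dioxin receptor (3.71). Thbs1 was at 7.55, 8.04 and 7.87 CPM with itraconazole and 20.7, 13.1 and 31.4 CPM without at rest, and at 2004, 2557 and 2195 CPM with itraconazole and LPS and 94.1, 130.4 and 443 CPM with LPS alone, so that it was lower at rest and higher with LPS. Ahr crossed over likewise, at rest with 3.51, 3.02 and 4.79 CPM with itraconazole and 8.22, 6.2 and 11.1 CPM untreated, and then 42, 33.2 and 19.8 CPM with itraconazole and LPS and 5.84, 4.74 and 5.71 CPM with LPS alone. Samd4 fell at rest by less than its interaction value. It was at or below 0.803 CPM in all LPS libraries of both groups, so the LPS side of its interaction rests on few reads. The neutrophil chemokines Cxcl1 and Cxcl3 and the cytokine Il1a were under 1 CPM in the resting libraries of both groups and rose with itraconazole over LPS alone, Il1a for example to 3838, 3429 and 1004 CPM with itraconazole and LPS against 160.4, 128 and 48.4 CPM with LPS alone. Without untreated mouse 3 the interaction of Cxcl1 was 2.88 (adjusted p = 0.24) and that of Il1a 3.43 (adjusted p = 0.10). Cxcl3 lost its call without untreated mouse 1 (3.72, adjusted p = 0.35) or any 1 of 7 other resting and LPS libraries, and with the mouse as a block (4.61, adjusted p = 0.057).

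Negative interaction values were found for Olfml3 (-5.12), Neil3 (-4.8), Depdc1b (-4.73), Pbk (-4.47), Il1rl1 (-4.12) and Plau (-3.92). Plau was higher with itraconazole at rest and lower with it under LPS, at 16.2, 12.9 and 6.81 CPM with itraconazole and LPS and 51.1, 41.3 and 17.9 CPM with LPS alone (adjusted p of the interaction 1.9e-05). Neil3, a DNA glycosylase, Depdc1b and the mitotic kinase Pbk, together with Il1rl1, the IL-33 receptor, had no read in the itraconazole libraries with LPS and at most 0.18 CPM in those with LPS alone, so no fold is given there and the fitted values depend on the prior count. The calls of Pbk and Il1rl1 were lost when any of several single libraries was left out, Pbk for example without untreated-with-LPS mouse 3 (-3.56, adjusted p = 0.18) and Il1rl1 without untreated-with-LPS mouse 1 (-3.75, adjusted p = 0.099) or with the mouse as a block (-4.12, adjusted p = 0.061). With the even counts halved, the interaction of Neil3 was -4.16 (adjusted p = 0.069), and Pbk (adjusted p = 0.106), Il1rl1 (0.138) and Cxcl3 (0.126) also lost the call. With only the compared groups in the fit Cxcl3 (0.108), Pbk (0.061) and Il1rl1 (0.056) lost it as well.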

How the results depend on the processing

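The counts of genes that rose or fell with itraconazole stayed within 1.5 times the reported ones under every alternative run except the loss of untreated mouse 3, alone or with its itraconazole partner, and among the calls shared with each alternative none changed direction. With mouse 3 left out of both groups, an alternative chosen after seeing the data, 1042 genes rose and 835 fell. Leaving out 1 library gave 1210 to 1737 higher and 1033 to 1472 lower, the lowest without untreated mouse 3. With the mouse as a replicate block, 2157 rose and 1892 fell, the difference from 25HC had 67 calls instead of 31, that from OSW-1 1243 instead of 834 and the interaction with LPS 4016. DESeq2 called 110 genes against 25HC and 1319 against OSW-1. With only the compared groups in the fit, 83 genes differed from 25HC and 1924 from OSW-1, and 2292 had an interaction. Over single libraries left out, calls ranged from 19 to 32 against 25HC, from 176 to 677 against OSW-1 and from 2503 to 4378 for the interaction. The cause of these differences was not tested. Without mouse 3 in both groups the counts also fell for ER chaperones that rose (6), GBP and IRG genes that fell (10), resident-like genes that fell (8), immediate early genes that rose (5) and lysosomal genes that fell (11). In all, that alternative moved 51 list counts by more than 1.5 times or to or from 0, and 71 stayed. Of the named genes 52 lost the call, Il10 and Lpl among them, 1 gained it and 257 stayed the same. With only the compared groups in the fit 6 MHC class II genes fell and 2 lysosomal genes rose, and Cd24a lost its call against 25HC (adjusted p = 0.092). With no count filter Npc1 lost its call (adjusted p = 0.061) and no autophagy gene rose. Of 17 ER stress sensors and degradation factors 1 fell with DESeq2, its size factors, halved counts or only the compared groups. Among other lists there was 1 KDEL or p24 gene lower with only the compared groups, 1 MAP kinase feedback gene lower and 1 iron gene higher with DESeq2, and 1 hedgehog gene lower with either. Of 346 tests of named genes the block moved 12 across the threshold, 8 into it and 4 out of it, and it changed no other call given above.

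Depth leaves few reads for weakly expressed genes, and the values of Kdelr3, Timd4, Olr1 and Nt5e rest on 1 to 143 reads.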

Other observations

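Of 31 genes of glucose uptake, glycolysis and hypoxia 7 were higher and 3 lower, beside 14.4% and 12.4% of all genes tested, so the list as a whole is not read as changed. Without untreated mouse 1 the rises numbered 4, and the falls numbered 0 or 1 when any library but itraconazole mouse 3 was left out. The glucose transporter Slc2a1 was at 71.5, 85.7 and 104 CPM with itraconazole and 30.5, 47.6 and 25.1 CPM without (1.34 ± 0.22, adjusted p = 9.41e-05), and the hexokinase Hk2 at 31.2, 33.5 and 34.9 CPM with itraconazole and 10.4, 15.6 and 10.3 CPM in untreated cells (1.45 ± 0.20, adjusted p = 1.15e-05). Both were higher in all 3 mice without overlap. Of 30 nuclear genes of oxidative phosphorylation 1 fell, Sdha, a subunit of succinate dehydrogenase (-0.16 ± 0.05, adjusted p = 0.027), and 29 did not pass the test. The falls numbered 0 without itraconazole mouse 2 or 3, without untreated mouse 1 or 3 or with no count filter, and 4 with only the compared groups in the fit, DESeq2 gave 2 lower and 1 higher, and 1 rose with the mouse as a block. Of the 13 genes encoded in mitochondria 1 rose, mt-Nd6 (0.55 ± 0.19, adjusted p = 0.0377), and none fell, and none rose without itraconazole mouse 1 or 2 or any 1 untreated library. Lpl, the lipoprotein lipase and 1 of the most abundant genes named, was at 4773, 5290.3 and 6566 CPM with the drug against 3319, 3894 and 3687 CPM without it (0.61 ± 0.16, adjusted p = 0.00559), whereas the fatty acid carrier Fabp5 fell to 86.2, 95.9 and 121 CPM, against 226, 239.9 and 221 CPM untreated (-1.18 ± 0.21, adjusted p = 0.000151). Lpl lost its call without mouse 3 in both groups (0.48, adjusted p = 0.099).

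Iron handling genes fell where they changed, with none of 17 higher (1 without itraconazole mouse 2 or untreated mouse 3) and 5 lower. Slc40a1, the iron exporter ferroportin, stood at 108, 90.6 and 65.5 CPM with itraconazole and 417, 326 and 371 CPM without (-2.08 ± 0.39, adjusted p = 0.000353), and Ncoa4, which takes ferritin to lysosomes, at 40.9, 44.2 and 45.1 CPM with itraconazole and 126, 111 and 138 CPM untreated (-1.53 ± 0.15, adjusted p = 1.36e-07). Clock genes had 3 of 17 members higher and 5 lower, with Per3 at 4.75, 6.87 and 6.75 CPM with itraconazole against 15.3, 16 and 23.3 CPM in untreated cells (-1.57 ± 0.24, adjusted p = 3.23e-05) and Bhlhe40, a repressor of clock genes, at 19.6, 24.1 and 48.4 CPM with the drug against 8.41, 9.33 and 8.11 CPM without it (1.83 ± 0.36, adjusted p = 0.000576). The highest Bhlhe40 value was that of itraconazole mouse 3. Sesn1, a p53 target that restrains mTORC1, fell to 108, 134 and 156 CPM, against 349, 347 and 450.0 CPM untreated (-1.53 ± 0.27, adjusted p = 0.000208). Of the 6 hedgehog pathway genes tested, a pathway that itraconazole is known to inhibit, 1 rose and none fell (1 fell with the mouse as a block). Beside 14.4% and 12.4% of all genes tested, the hedgehog list is not read as changed. Ptch1, the hedgehog receptor, had 6.6, 7.43 and 6.45 CPM with itraconazole and 3.17, 5.00 and 5.2 CPM untreated (0.62 ± 0.20, adjusted p = 0.0246), and lost the call without itraconazole mouse 2 (0.56, adjusted p = 0.086) or untreated mouse 1 (0.42, adjusted p = 0.16).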
